A study of Mus musculus with 16 samples.

Results

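Xaf1, Trpm1, Spic and Srarp are 4 genes of mouse embryonic stem (ES) cells, out of 27179 in the table, that were selected on RNA counts falling to 0 within 40 h of release from naive pluripotency. The members were chosen by the counts of the 0 h and 40 h libraries: Xaf1 and Srarp were picked for 0 counts at 40 h after release from 2i/LIF, and Trpm1, Spic and Srarp for 0 counts at 40 h after release from serum/LIF+2i. All 4 were among the 14288 genes that passed the filter on low counts. The 0 to 40 h fall in those media is therefore given as a description with no test, and tests were kept to the 12 h and 24 h libraries and to the medium in which a gene was not picked. Both releases leave the naive state, and each gene was counted mostly in the groups where it was high. A fall in the medium not used was therefore likely beforehand, and its p-values are no independent support.

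The libraries formed 8 groups of 2. ES cells that had been cultured in serum/LIF were adapted over 3 passages to 1 of 2 media. 2i/LIF is serum-free and made with N-2 and B-27 supplements, and serum/LIF+2i contains 10% fetal bovine serum. Both contain leukaemia inhibitory factor (LIF), 3 uM CHIR99021 (a GSK3 inhibitor) and 1 uM PD0325901 (a MEK inhibitor). Cells were collected before release (0 h) or 12, 24 or 40 h after a change to serum-free medium without LIF and without the inhibitors. The release media also differed: that of serum/LIF+2i cells was made with glutamine-free DMEM and given 2 mM glutamine. The protocol names 24 and 40 h for the release of these cells, and the 12 h group was taken from the sample labels. The labels used here give no cell line name, and nothing in them says that replicates were separate cultures, so p-values may measure technical spread only.

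Naive pluripotency is the state of the early epiblast before implantation, and in culture it is held by LIF, which acts through STAT3, and by the inhibitors, which block ERK signalling and raise Wnt pathway activity. When these are withdrawn the naive transcription programme is dismantled and the cells move to a formative state. The 4 genes are not core pluripotency factors. Xaf1 encodes a partner and antagonist of the caspase inhibitor XIAP and is induced by interferon. Trpm1 encodes a cation channel known from retinal ON-bipolar cells and melanocytes. Spic encodes an ETS transcription factor related to PU.1 that is needed for red pulp macrophages. Srarp encodes a small protein described as an associate of steroid receptors.

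Total counts per library ran from 5931381 to 11142744, and between replicates, Pearson's r across genes was 0.991 to 0.995 for log2 CPM. Levels are given as CPM, counts scaled to a common library total adjusted by the trimmed mean of M values (TMM). A count of 3 was set as the floor of detection, which corresponded to 0.258 to 0.517 CPM. All 6 ES cell markers (Pou5f1, Sox2, Sall4, Lin28a, Utf1 and Dnmt3b) had at least 1 CPM in every group, with summed levels of 1533 to 4605 CPM over the libraries.

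All 4 genes lost most of their RNA in the first 12 h in both media. Of the 0 h mean, 2.26% to 18.7% was left at 12 h after release from 2i/LIF and 1.95% to 21.9% after release from serum/LIF+2i. At 24 h the ranges were 0.776% to 3.85% and 0.199% to 0.503%. At 40 h, 6 of the 8 combinations of gene and medium had 0 counts in both libraries. Trpm1 in 2i/LIF, with 0 and 4 counts, and Xaf1 in serum/LIF+2i, with 0 and 1 count, did not, so "switched off completely" holds for Spic and Srarp in both media and for the other pair in 1 medium each. A count of 0 in both libraries allowed a level of up to 0.392 CPM in 2i/LIF cells and 0.274 CPM in serum/LIF+2i at 40 h. In bulk RNA, fewer cells with a transcript and less transcript per cell cannot be told apart.

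**Figure D1:**
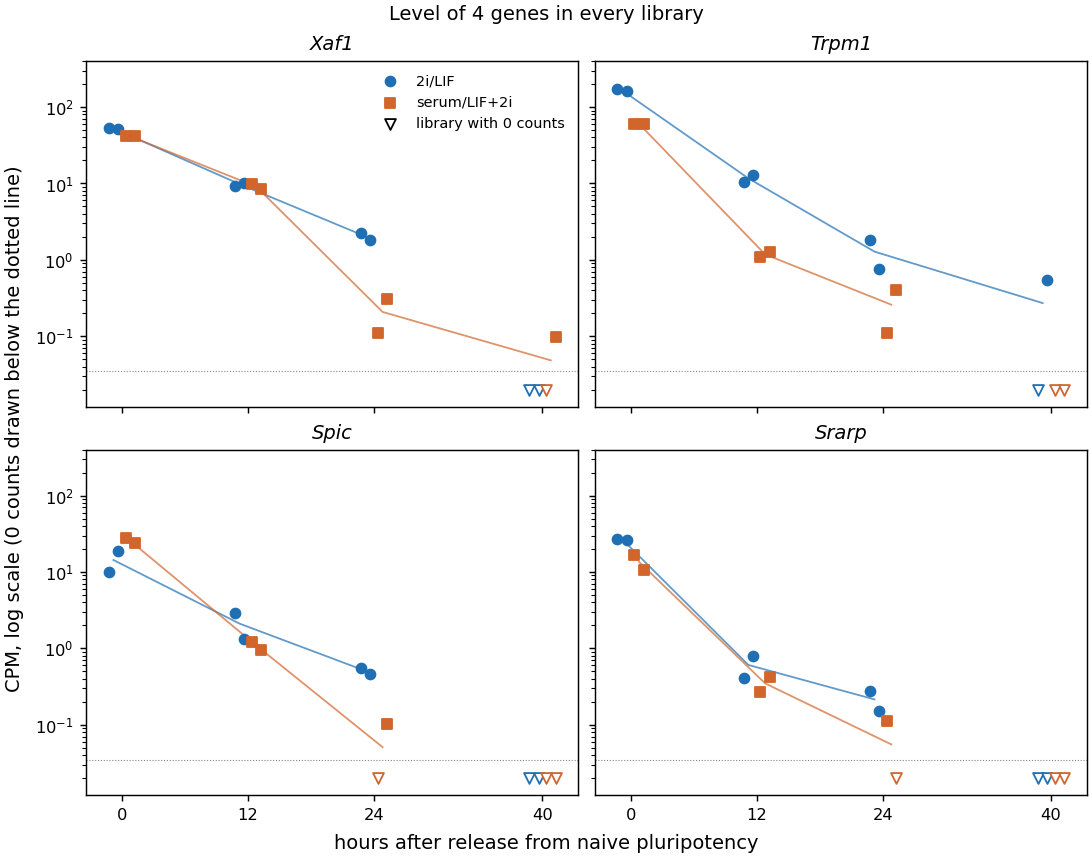
Level in every library of Xaf1, Trpm1, Spic and Srarp, as CPM on a log axis, against hours after release from 2i/LIF (blue circles) or serum/LIF+2i (orange squares). Lines join the means of the 2 libraries where the mean is above 0, and open triangles below the dotted line mark libraries with 0 counts. At 24 h Xaf1 stands at 2.02 CPM in 2i/LIF cells and at 0.208 CPM in serum/LIF+2i, while at 12 h the media overlap.

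Xaf1 (Entrez 327959, chr11:72301461-72313733 in GRCm38, plus strand) kept 18.7% ± 1.31 and 21.9% ± 2.26 (SD, n = 2) of its 0 h level at 12 h in 2i/LIF and serum/LIF+2i cells, where Spic kept 14.7% ± 7.60 and 4.25% ± 0.715, so that their order in 2i/LIF cells is within the spread. After release from 2i/LIF its libraries stood at 53.8 and 51.3 CPM at 0 h, 9.32 and 10.3 CPM at 12 h, 2.22 and 1.82 CPM at 24 h, and 0 at 40 h. After release from serum/LIF+2i they stood at 41.4 and 41.4 CPM at 0 h, 9.73 and 8.41 CPM at 12 h, 0.111 and 0.306 CPM at 24 h (1 and 3 counts), and 0 and 0.0968 CPM at 40 h. The libraries of the media overlapped at 12 h and were apart at 24 h, with both serum/LIF+2i libraries low.

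The 12 to 24 h fall of Xaf1 was steeper after release from serum/LIF+2i. In 2i/LIF it fell by 2.26 ± 0.26 (SE) on the log2 scale (adjusted p 1.07e-12, edgeR), a 4.83-fold drop in summed counts with a 95% exact interval of 3.21 to 7.52. In serum/LIF+2i it fell by 5.31 ± 0.39 (adjusted p 2.66e-24, edgeR), a 42.4-fold drop with an interval of 16.2 to 158. Since PCR copies were not told apart by molecular identifiers, such intervals describe counting error alone. The difference between the changes was -3.04 ± 0.63 (adjusted p 0.000108, edgeR), and Xaf1 was the 1 member of 4 for which it was called, against 9.87% of all genes tested called in that direction. At 12 h the media differed by -0.12 ± 0.18 (serum/LIF+2i minus 2i/LIF, adjusted p 0.641, edgeR), with 2i/LIF over serum/LIF+2i at 1.09-fold and an interval of 0.863 to 1.38. At 24 h the difference was -3.17 ± 0.60 (adjusted p 6.89e-06, edgeR), or 9.58-fold higher in 2i/LIF with an interval of 3.35 to 37.6. The low 24 h counts made these values depend on single libraries: without the serum/LIF+2i library of 3 counts or that of 1 count, the 24 h difference was -4.01 or -2.66 and the step in serum/LIF+2i -6.15 or -4.80, called each time.

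The release from serum/LIF+2i was not used to pick Xaf1 and was tested from its start, though a fall there was likely beforehand. Xaf1 fell throughout, with log2 changes from 0 h of -2.20 ± 0.13 at 12 h, -7.51 ± 0.26 at 24 h and -9.40 ± 0.31 at 40 h (adjusted p 5.71e-31, 3.47e-52 and 3.01e-55, edgeR), in comparisons in which 25.9%, 32.0% and 35.3% of all genes tested were lower and called. These 3 comparisons share the 0 h libraries. By DESeq2 the SE was 0.74 at 24 h and 1.43 at 40 h, so the smaller edgeR values may understate the spread. The 40 h value rests on 1 count at 40 h against 564 at 0 h, a 909-fold drop with an interval of 162 to 35960. From 24 to 40 h the summed counts went from 4 to 1, a 4.65-fold drop with an interval of 0.46 to 229. That interval includes 1, so a further fall after 24 h is undecided. With each library left out in turn, the 24 h value ran from -8.34 to -6.99 and the 40 h value from -11.34 (without replicate 2 at 40 h, which held that count) to -8.51, called each time. In 2i/LIF, as a description, Xaf1 was at least 5.16-fold lower at 40 h than at 24 h and at least 134-fold lower than at 0 h, set against 3 counts per library.

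Trpm1 (Entrez 17364, chr7:64153835-64269772, plus strand) was the most abundant of the 4 by CPM at 0 h in both media, and its 2i/LIF libraries were the higher ones up to 24 h. After release from 2i/LIF its libraries had 170 and 160 CPM at 0 h, 10.4 and 13.0 CPM at 12 h, 1.81 and 0.760 CPM at 24 h, and 0 and 0.544 CPM at 40 h. After release from serum/LIF+2i they had 60.8 and 60.1 CPM at 0 h, 1.08 and 1.28 CPM at 12 h, 0.111 and 0.408 CPM at 24 h, and 0 in both at 40 h. The 2i/LIF libraries were higher with no overlap at 0, 12 and 24 h, by 2.73-fold (interval 2.52 to 2.96), 9.83-fold (6.17 to 16.5) and 4.93-fold (1.76 to 17.0) in summed counts. The 0 h value is a description, since serum/LIF+2i libraries of that time entered the choice.

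Tests in libraries that did not enter the choice gave the following for Trpm1. It was picked in serum/LIF+2i alone and began lower there, so lower levels there at 12 h and 24 h were favoured by the choice. The medium difference was -3.28 ± 0.27 at 12 h (serum/LIF+2i minus 2i/LIF, adjusted p 1.97e-19, edgeR), where Trpm1 alone of the 4 was called and 15.5% of all genes tested were lower and called. At 24 h it was -2.23 ± 0.66 (adjusted p 0.00486, edgeR), where Trpm1 and Xaf1 were called and the background was 17.0%. That 24 h call was lost without replicate 1 of 2i/LIF (-1.45, adjusted p 0.278, edgeR) or replicate 1 of serum/LIF+2i (-1.63, adjusted p 0.0891), and without replicate 2 of serum/LIF+2i the value was -3.38. Within 2i/LIF, the medium in which it was not picked, Trpm1 fell throughout, with log2 changes from 0 h of -3.82 ± 0.10 at 12 h, -6.97 ± 0.16 at 24 h and -9.22 ± 0.20 at 40 h (adjusted p 3.96e-61, 1.1e-68 and 1.1e-71, edgeR). Lower and called in these comparisons were 23.7%, 29.6% and 34.7% of all genes tested. By DESeq2 the SE was 0.36 at 24 h and 0.73 at 40 h, so the smaller edgeR values may understate the spread. The 40 h value rests on 4 counts in replicate 2, a 633-fold drop with an interval of 247 to 2326. With each library left out in turn, the 24 h value ran from -7.73 to -6.50 and the 40 h value from -13.36 (without that replicate, which leaves 0 counts) to -8.19, called each time.

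From 12 to 24 h Trpm1 fell by 3.15 ± 0.29 in 2i/LIF (adjusted p 1.05e-17, edgeR) and by 2.10 ± 0.64 in serum/LIF+2i (adjusted p 0.00416). The second call was lost when the 24 h library of replicate 1 was left out (-1.50, adjusted p 0.0827), and without replicate 2 the value was -3.25. The changes did not differ detectably, at 1.05 ± 0.91 (adjusted p 0.486).

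RefSeq lists 2 starts for Trpm1 in GRCm38.p6, and the counts per gene do not separate transcripts. The 250 bases before each start are shown because Mitf, the melanocyte regulator known to act on Trpm1 through E-boxes, fell alongside it (values with the related factors). The E-box letters CANGTG, searched on both strands, are in capitals, at bases -141 to -136 of the first window (chr7:64153585-64153834, plus strand) and -229 to -224 of the second (chr7:64185209-64185458, plus strand), counted back from the start.
Trpm1 start 1: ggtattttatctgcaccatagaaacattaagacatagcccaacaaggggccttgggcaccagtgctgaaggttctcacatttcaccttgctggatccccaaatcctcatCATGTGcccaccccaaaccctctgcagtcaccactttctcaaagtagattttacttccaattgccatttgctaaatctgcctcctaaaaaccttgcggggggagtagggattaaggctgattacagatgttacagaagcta
Trpm1 start 2: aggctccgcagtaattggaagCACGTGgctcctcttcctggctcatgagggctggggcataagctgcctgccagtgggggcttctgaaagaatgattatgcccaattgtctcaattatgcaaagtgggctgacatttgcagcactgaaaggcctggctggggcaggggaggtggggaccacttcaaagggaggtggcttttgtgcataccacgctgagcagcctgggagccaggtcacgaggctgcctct
Of 32851 RefSeq promoter windows of this length, 39.5% held these letters, so a match is frequent and is given as a description. Whether Mitf had a part in the fall of Trpm1 was not tested.

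Spic (Entrez 20728, chr10:88675269-88683023, minus strand) was the member whose replicates differed most at 0 h in 2i/LIF. Its libraries there had 10.0 and 18.7 CPM (58 and 123 counts) at 0 h, 2.88 and 1.34 CPM at 12 h, 0.555 and 0.456 CPM at 24 h, and 0 in both at 40 h. After release from serum/LIF+2i they had 27.5 and 23.7 CPM at 0 h, 1.22 and 0.958 CPM at 12 h, 0 and 0.102 CPM at 24 h, and 0 in both at 40 h. Both serum/LIF+2i libraries were above both 2i/LIF libraries at 0 h, and below them at 12 h and 24 h. The 0 h order is a description, since serum/LIF+2i libraries of that time entered the choice. The later differences were not called, and at 24 h they rest on 0 and 1 count against 4 and 3, so a change of order is undecided.

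Within 2i/LIF, where it was not picked, Spic fell, with log2 changes from 0 h of -2.79 ± 0.28 at 12 h and -4.80 ± 0.38 at 24 h (adjusted p 5.37e-14 and 2.01e-18, edgeR). With each library left out in turn the 12 h value ran from -3.43 to -2.23 and was called each time. At 40 h it was called as well (adjusted p 8.73e-22, edgeR), and with 0 counts left it was at least 36.6-fold lower than at 0 h. Since Spic was picked for its fall in the other release, these p-values describe the fall and are no independent support. From 12 to 24 h it fell by 2.01 ± 0.60 in 2i/LIF (adjusted p 0.00516, edgeR), a call that was lost without replicate 1 at 12 h (-1.37, adjusted p 0.187) or replicate 2 at 24 h (-1.89, adjusted p 0.0587). In serum/LIF+2i it fell by 3.99 ± 0.99 over that step (adjusted p 0.00053, edgeR), from 18 counts to 1, a 20.2-fold drop with an interval of 3.19 to 842. Without replicate 2 at 24 h, which held that count, the fitted value was -6.10.

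The medium differences of Spic missed the threshold at both times. They were -0.96 ± 0.47 at 12 h (adjusted p 0.12, edgeR) and -2.93 ± 1.23 at 24 h (adjusted p 0.0615, edgeR), with 2i/LIF over serum/LIF+2i at 1.96-fold (interval 1.06 to 3.72) and 9.58-fold (1.23 to 432). The 12 h value was called without replicate 2 of 2i/LIF (-1.41, adjusted p 0.0382), and the 24 h value without any of 3 libraries at 0 h (adjusted p 0.0417 to 0.0493). The difference between the 12 to 24 h changes was -1.97 ± 1.33 (adjusted p 0.343).

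The window before the single start of Spic (chr10:88683024-88683273, minus strand) is shown because it holds the letters AGGAAGT, the core that ETS factors of the PU.1 group recognise, at bases -48 to -42 on the opposite strand (ACTTCCT). They are in capitals with a run of G that fits the KLF letters CCNCNCCC on the opposite strand in overlapping places.
Spic: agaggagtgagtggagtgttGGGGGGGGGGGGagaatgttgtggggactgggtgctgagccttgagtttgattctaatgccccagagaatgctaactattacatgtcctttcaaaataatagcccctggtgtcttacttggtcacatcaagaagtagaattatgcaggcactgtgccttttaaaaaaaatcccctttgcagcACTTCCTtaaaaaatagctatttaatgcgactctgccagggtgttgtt
The ETS letters were in 7.69% of the RefSeq windows and the KLF letters in 45.9%.

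Srarp (Entrez 277744, chr4:141432672-141436105, minus strand) fell within 12 h to counts near the floor in both media. After release from 2i/LIF its libraries had 27.2 and 26.4 CPM at 0 h, 0.411 and 0.802 CPM at 12 h (3 and 6 counts), 0.278 and 0.152 CPM at 24 h, and 0 in both at 40 h. After release from serum/LIF+2i they had 16.6 and 10.6 CPM at 0 h, 0.270 and 0.426 CPM at 12 h (2 and 4 counts), 0.111 and 0 CPM at 24 h, and 0 in both at 40 h. The media were apart at 0 h, with 2i/LIF 1.97-fold higher in summed counts (interval 1.64 to 2.37), and overlapped at 12 h. The 0 h value is a description, since those libraries entered the choice. Its interval leaves out the spread between replicates.

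The drop over the first 12 h was 44.0-fold in 2i/LIF (interval 22.9 to 97.1) and 38.0-fold in serum/LIF+2i (17.1 to 105), both as descriptions because Srarp was picked in both media. The step from 12 to 24 h was not called in 2i/LIF (-1.42 ± 0.90, adjusted p 0.229, edgeR) or in serum/LIF+2i (-2.44 ± 1.20, adjusted p 0.084). The intervals, 0.698 to 16.1 and 0.817 to 310 for the fold drop, include 1 and reach large folds, so a further fall was not detectable at this depth and is undecided. Medium differences were -0.74 ± 0.77 at 12 h (adjusted p 0.499) and -1.76 ± 1.39 at 24 h (adjusted p 0.353), and the steps differed by -1.02 ± 1.48 (adjusted p 0.707).

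The window before the start of Srarp (chr4:141436106-141436355, minus strand) is shown because it was the only one of the 5 windows with the TCF/LEF letters ATCAAAG, the sequence bound by the factors that act with beta-catenin, which GSK3 inhibition stabilises. They stand at bases -78 to -72, in capitals, as does a match to the KLF letters at -122 to -115.
Srarp: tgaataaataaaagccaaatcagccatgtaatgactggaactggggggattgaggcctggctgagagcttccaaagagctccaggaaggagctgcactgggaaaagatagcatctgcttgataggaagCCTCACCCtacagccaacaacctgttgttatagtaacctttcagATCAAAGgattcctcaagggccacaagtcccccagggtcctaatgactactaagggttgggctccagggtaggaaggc
The TCF/LEF letters were in 3.21% of all RefSeq windows. A link of this match to the inhibitor or to the fall of Srarp was not tested, nor was any role of the other marked letters. The window held 0 CpG sites, as did 7.87% of windows, where the median was 6. The other motifs searched on both strands were STAT (TTCNNNGAA, in 7.02% of windows), ESRRB (AAGGTCA, 4.08%), the octamer (ATTTGCAT, 1.60%), the interferon response element (2.98%) and TFCP2L1 (2.78%). None of these was found in the 5 windows, the E-box letters were in those of Trpm1 alone, and the window of Xaf1 held none of the 9 motifs, which says only that those letters are not there. The Xaf1 window (chr11:72301379-72301628, plus strand) runs past the gene start at 72301461, so part of it lies inside the gene.

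Over the step from 12 to 24 h, which uses no library that chose the genes, 3 of the 4 were called and lower in each medium, Xaf1, Trpm1 and Spic. The step lies inside the fall to 0 by 40 h for which the genes were chosen. A gene chosen in a medium with counts left there at 12 h had to fall later. The number called therefore describes when the fall took place and is no independent support for it. Among all genes tested, 17.7% were called and lower in 2i/LIF cells and 24.2% in serum/LIF+2i. The median log2 change over all genes tested was 0.007 and 0.009.

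**Figure D2:**
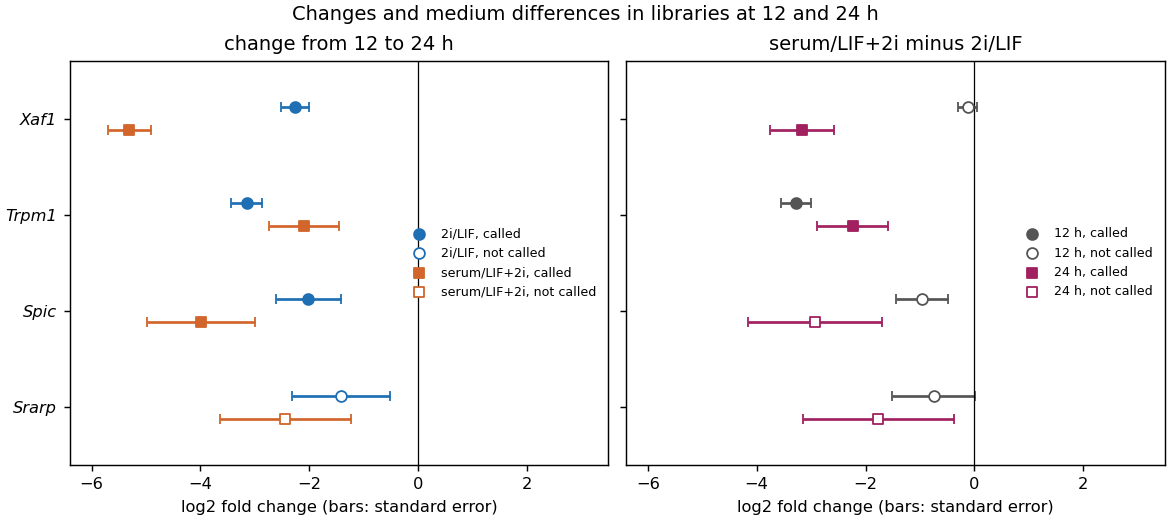
Log2 fold changes with standard errors of the 4 genes in the 12 h and 24 h libraries, with the change from 12 to 24 h in each medium on the left and the medium difference at each time on the right. Filled symbols were called by edgeR at an adjusted p under 0.05. Xaf1 has the widest gap between the media on the left, -2.26 against -5.31, and moves from -0.12 to -3.17 on the right.

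Levels of different genes can be set side by side only per length. Per kilobase of the deposited gene length, the order at 0 h in 2i/LIF was Srarp at 29.7 ± 0.624, Trpm1 at 24.2 ± 1.05, Xaf1 at 20.2 ± 0.661 and Spic at 11.3 ± 4.85 CPM per kb (SD, n = 2). In serum/LIF+2i it was Spic at 20.2 ± 2.14, Xaf1 at 15.9 ± 0.00408, Srarp at 15.0 ± 4.71 and Trpm1 at 8.83 ± 0.0781 CPM per kb. There Xaf1 and Srarp did not differ beyond their spread. Trpm1, first by CPM, has the longest transcript model of the 4 at 6848 bases, and Srarp the shortest at 905.

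By 12 h each of the 4 genes had lost a larger share of its 0 h level than the median of a list of 14 naive pluripotency genes. In 2i/LIF cells the median naive gene kept 68.5%, 29.1% and 7.83% at 12, 24 and 40 h, and in serum/LIF+2i cells it kept 67.6%, 16.7% and 6.76%. The lowest naive gene at 12 h was Klf4, at 18.1% and 9.29%. Of 9356 genes with at least 10 CPM at 0 h in 2i/LIF, 7 had a smaller share left at 12 h than Srarp, 26 than Trpm1, 60 than Spic and 87 than Xaf1. Of 9283 such genes in serum/LIF+2i, the numbers were 9, 6, 14 and 108. Because the genes were picked for a large fall, these ranks describe the course of the fall and test nothing.

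**Figure D3:**
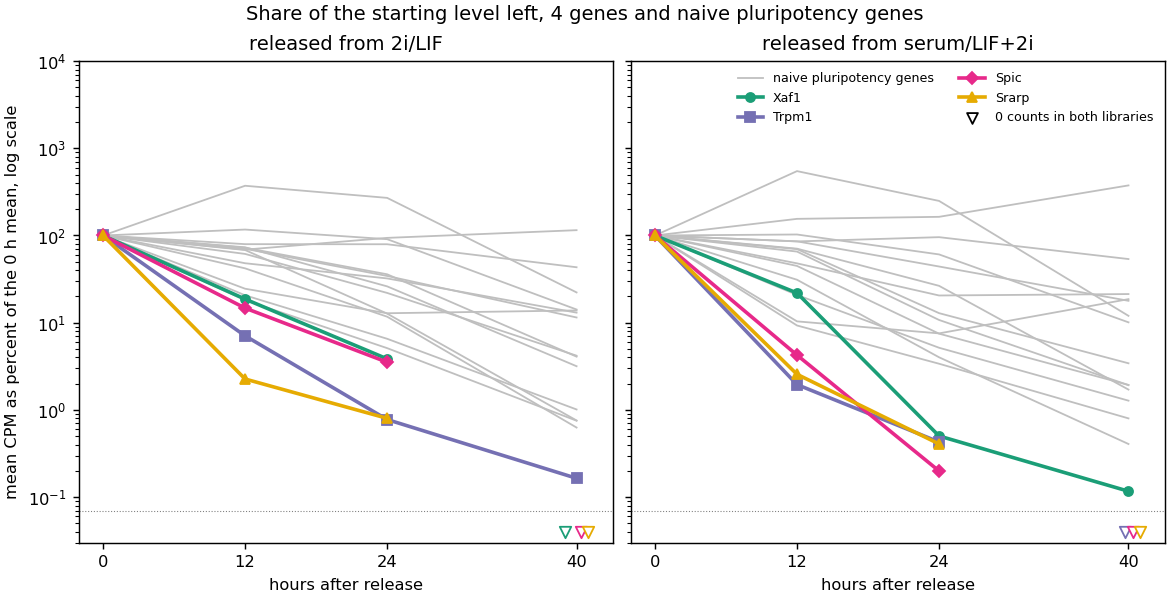
Mean CPM as a percentage of the 0 h mean, on a log axis, against hours after release from each medium, for the 4 genes (coloured) and 14 naive pluripotency genes (grey lines). Open triangles below the dotted line mark genes with 0 counts in both libraries. In serum/LIF+2i Xaf1 goes from 21.9% at 12 h to 0.503% at 24 h, below every grey line at that time.

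Few genes ended like these. With a mean of at least 10 CPM at 0 h and 0 counts in both 40 h libraries as the rule, 11 of 9356 genes qualified in 2i/LIF (0.118%) and 4 of 9283 in serum/LIF+2i (0.0431%). The 2i/LIF genes were Xaf1, Srarp, Bhmt2, Serpinb9b, S1pr1, Cnga4, Serpinb1a and Bhmt in order of the 0 h level, then Tlx2, Spic and Cemip. The serum/LIF+2i genes were Trpm1, Spic, Srarp and Bhmt2. Spic, Srarp and Bhmt2, a betaine-homocysteine methyltransferase that went from 23.8 ± 0.749 and 13.1 ± 0.627 CPM to 0, were in both sets, which is 27.3% of the first and 75.0% of the second. The least abundant that qualified were Cemip at 14.0 ± 2.16 CPM in 2i/LIF cells and Bhmt2 in serum/LIF+2i. In serum/LIF+2i cells at 40 h, Xaf1 and Bhmt had 0 and 1 count, and S1pr1, Cnga4 and Tlx2 had 1 in each library. Serpinb9b had 0 in both, Serpinb1a 2 and 4, and Cemip 1 and 5. The adjusted library totals at 40 h were 11603497 and 10333406 in serum/LIF+2i, and 7984529 and 7359419 in 2i/LIF. The numbers that qualified and their overlap therefore depend on depth and single counts, and do not measure a difference between the media.

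Genes related to the 4 by family or pathway, in 7 lists given under processing, were called in both directions in every list but the TRPM channels. Among all genes tested at 40 h against 0 h, 34.1% were higher and 34.7% lower in 2i/LIF, and 35.3% each in serum/LIF+2i, with medians of 0.005 and -0.003. Of the 12 genes of the IAP and caspase network around XIAP, 2 were higher and 7 lower in 2i/LIF (median -0.34) and 2 and 9 in serum/LIF+2i (median -0.34). Xiap itself went from 162 ± 7.56 to 107 ± 2.73 CPM in 2i/LIF cells and fell by 0.39 ± 0.05 on the log2 scale in serum/LIF+2i. Birc6 fell by 0.32 ± 0.04 in 2i/LIF, and Birc5 by 0.58 ± 0.05 in serum/LIF+2i.

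Of 25 interferon-stimulated genes 16 passed the filter, of which 3 were higher and 11 lower in each medium, with medians of -1.13 in 2i/LIF cells and -1.58 in serum/LIF+2i. Oas1a, which makes the activator of RNase L, went from 49.5 ± 0.729 to 4.28 ± 0.860 CPM in 2i/LIF cells. In serum/LIF+2i cells its CPM went from 29.7 ± 1.88 to 1.50 ± 0.0705. Trim25, a ubiquitin ligase of RNA sensing, fell, at -1.47 ± 0.05 and -2.42 ± 0.05 on the log2 scale. Bst2, the tetherin that holds virus particles at the cell surface, rose by 2.30 ± 0.09 and 1.99 ± 0.08. A gene seen only through the group where it is high passes the filter and had to differ, so these counts describe the genes measured.

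Of the other 7 TRPM channels 4 passed the filter, and Trpm4, Trpm6 and Trpm7 were lower in both media while Trpm3 was not called. Trpm7, an ion channel joined to a kinase, stood at 250 ± 11.7 CPM at 0 h and 206 ± 4.04 CPM at 40 h in 2i/LIF, a fall of 0.28 ± 0.05 on the log2 scale. Trpm6 went from 6.05 ± 0.0312 to 0.658 ± 0.222 CPM there. In serum/LIF+2i cells its CPM went from 2.42 ± 0.312 to 0.506 ± 0.106. Trpm4 fell by 0.51 ± 0.13 in 2i/LIF cells and 0.96 ± 0.13 in serum/LIF+2i.

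The MITF and TFE factors parted. Mitf fell, with a log2 change of -5.53 ± 0.17 in 2i/LIF cells, from 76.0 ± 3.12 to 1.61 ± 0.737 CPM, and of -4.94 ± 0.14 in serum/LIF+2i cells, where it went from 84.5 ± 4.24 to 2.72 ± 0.422 CPM (adjusted p 9.82e-56 and 4.04e-61, edgeR). Its means at 12 h were 14.0 and 15.6 CPM. At 0 h Trpm1 was at 165 ± 7.20 and 60.5 ± 0.535 CPM. Tfeb fell, at -2.66 ± 0.14 and -2.39 ± 0.14. Tfe3, whose nuclear activity is known to hold back exit from naive pluripotency, rose by 0.81 ± 0.05 and 0.98 ± 0.05. Tfec did not pass the filter.

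Of 25 ETS factors other than Spic 18 passed the filter, with 3 higher and 12 lower in 2i/LIF (median -0.70) and 4 and 10 in serum/LIF+2i (median -0.50). Elf3, an epithelial ETS factor, went from 323 ± 15.0 to 12.7 ± 1.10 CPM in 2i/LIF cells. Its CPM in serum/LIF+2i cells went from 234 ± 7.32 to 14.1 ± 0.589. Elf4 fell, at -2.90 ± 0.13 and -2.36 ± 0.13, and Etv4, a target of FGF and ERK signalling, rose by 2.69 ± 0.10 and 3.66 ± 0.10. Of the 9 steroid and estrogen-related receptors 5 passed the filter, with 3 higher and 1 lower in each medium (medians 0.58 and 0.63). Esrrb, a naive pluripotency factor and on that list too, fell, at -4.61 ± 0.05 and -5.87 ± 0.05. Nr3c1, the glucocorticoid receptor, rose by 1.37 ± 0.14 and 1.43 ± 0.12. In the naive list itself 13 of 14 were lower and Gbx2 was higher in each medium (medians -3.85 and -4.09), led by Tfcp2l1, Esrrb and Nanog.

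**Figure D4:**
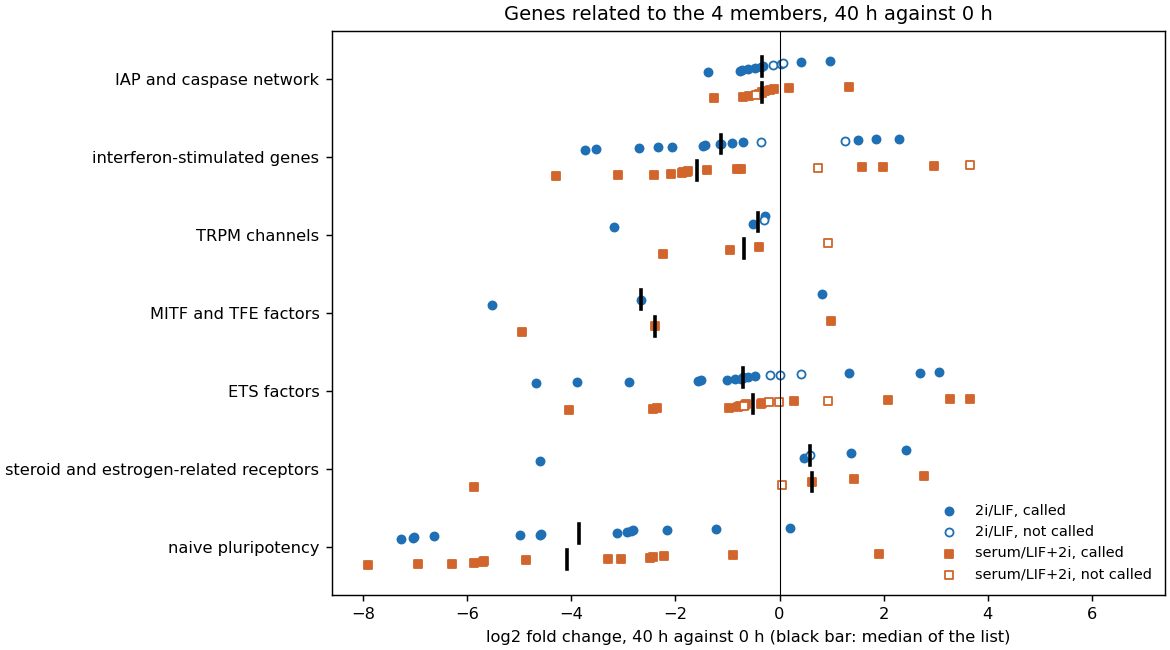
Log2 fold change at 40 h against 0 h of every gene that passed the filter in 7 lists of genes related to the 4 members, after release from 2i/LIF (blue circles) and serum/LIF+2i (orange squares). Filled symbols were called by edgeR at an adjusted p under 0.05, and black bars are list medians. Mitf, at -5.53 and -4.94, is the leftmost symbol of its row.

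The genes closest in pattern to each member were sought by Pearson's r of mean log2 CPM over the 8 groups. For Xaf1 they were Cnn3, Cmtm7 and Uqcrc1 (r 0.997, 0.995 and 0.995), for Trpm1 Ostm1, Ppp1r14d and Dmgdh (0.994, 0.992 and 0.991), for Spic Ppp6c, Tbc1d8 and Vps54 (0.998, 0.996 and 0.995), and for Srarp Manbal, Ephb3 and Osbpl7 (0.998, 0.995 and 0.995). Dmgdh, dimethylglycine dehydrogenase, was among those of Trpm1 and went from a CPM of 80.6 to 0.136 (2i/LIF cells) and of 35.5 to 0.0484 (serum/LIF+2i cells), with the same order of the media at 0 h as Trpm1. Uqcrc1 went only from 339 to 278 CPM in 2i/LIF, since r does not see the size of a change. Among the members r ran from 0.877 for Xaf1 with Srarp to 0.965 for Trpm1 with Spic. These values describe 8 points that share libraries and a common course in time.

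The nearest genes on either side of each member were looked up in the same table. Fbxo39, 711 bases beyond Xaf1, had 6 counts in all libraries, and 1700051A21Rik on the other side had 0, too few to read a change. Klf13 next to Trpm1 rose by 0.36 ± 0.06 on the log2 scale from 0 to 40 h in 2i/LIF (adjusted p 8.9e-09, edgeR) and was at 0.08 ± 0.06 in serum/LIF+2i (0.172), while Mtmr10 fell by 0.62 ± 0.11 in 2i/LIF cells and was at -0.12 ± 0.11 in serum/LIF+2i cells (adjusted p 0.346). Mir211 and Mir6416 lie within Trpm1. Mir211 had 5 counts in all libraries, and as the sources used here do not say whether strand was used in counting, reads of overlapping genes cannot be told apart. Next to Srarp, Hspb7, a small heat shock protein gene 7362 bases away, was at 2.14 CPM in 2i/LIF cells and 1.62 CPM in serum/LIF+2i at 0 h and at 0 and 0.0915 CPM at 40 h (adjusted p 1.51e-07 and 8.46e-06, edgeR), on 54 counts in all. Zbtb17 on the other side fell, at -0.69 ± 0.10 and -0.62 ± 0.10. Mybpc1 next to Spic was at 1.18 and 1.25 CPM at 0 h and at 2.23 and 2.90 CPM at 12 h before it fell (adjusted p 0.00142 and 1.89e-05 at 40 h), whereas Gm4925 had 12 counts in all.

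Several markers of the other cell types in which the 4 genes are known were at or near 0. Others were not, among them Mitf, Pmel, Hmox1 and Cd68. Of 10 macrophage markers, Lyz2, Tyrobp and C1qb had 0 counts in all libraries and Adgre1 and Csf1r at most 0.152 CPM, while the summed level, mainly Hmox1 and Cd68, was 80.8 to 97.4 CPM at 0 h and 143 to 212 CPM at 40 h. Of 9 melanocyte markers, Dct had 0 counts and Tyr and Tyrp1 at most 0.272 CPM. Their summed level went from 118 to 129 CPM at 0 h to 6.93 to 10.5 CPM at 40 h, made up mostly of Mitf and of Pmel, whose mean CPM went from 40.3 to 3.40 (2i/LIF cells) and 37.1 to 3.18 (serum/LIF+2i cells). Retinal bipolar cell markers, 6 in number, summed to 4.41 to 13.6 CPM over the libraries, with 7.78 to 9.31 CPM at 0 h and 9.52 to 12.7 CPM at 40 h. The 9 fibroblast markers rose from 4.11 to 7.41 CPM at 0 h to 15.3 to 25.1 CPM at 40 h in summed level. Grm6 rose from 0 to 4.37 CPM and Dcn from 0 to 11.2 CPM in 2i/LIF cells, while Prkca fell from 7.36 to 2.19 CPM. In serum/LIF+2i cells Grm6 reached 3.26 CPM and Dcn 4.74 CPM, and Prkca went from 4.85 to 4.15 CPM. The 8 primitive endoderm markers summed to 161 to 180 CPM at 0 h and 14.8 to 20.7 CPM at 40 h, mostly Lama1, with Gata6 and Sox17 at most 1.22 CPM. Within that list Dab2 went the other way, with mean CPM of 1.13 at 0 h and 8.43 at 40 h (2i/LIF cells) and of 2.72 and 9.77 (serum/LIF+2i cells), and Gata4 reached 3.97 CPM. The 7 counted markers of 2-cell-like cells, of 8 listed, rose from 0.734 to 6.72 CPM at 0 h to 15.3 to 39.0 CPM at 40 h in summed level. The part of Mitf, Pmel and Lama1, which moved with the 4 genes, was not tested.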

How the data were processed

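Total RNA (TRIzol) of 16 ES cell samples went into stranded mRNA libraries, per the labels' protocols. The authors deposited whole-number counts per gene, not normalized, with a gene length in bases. fastp, STAR, featureCounts and mm10 are named in the submitters' processing notes, with no versions or strand setting. Of 27179 genes, 1049 had no symbol and 5836 no counts, and 0 columns were left out.

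Genes were filtered with filterByExpr (minimum count 10, minimum total 15), which kept 14288, and scaled by TMM over the genes kept. All 16 libraries were fitted in 1 model with a term per group and 8 residual degrees of freedom (edgeR 4.0.16, quasi-likelihood F test, robust, two-sided, Benjamini-Hochberg over all genes, called at an adjusted p under 0.05). SE is the log2 fold change over the root of F, which may be too small where few counts remain. The procedure was tested on simulated data. Folds of summed counts have exact 95% intervals (scipy 1.17.1), and bounds are set against 3 counts per library.

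The members and lists were chosen with earlier results of these data known. Genes named are the 4 members, up to 3 per list and medium by adjusted p at 40 h, the 3 most alike per member, up to 8 switched off per medium, and neighbours from the RefSeq table of GRCm38.p6, the assembly of mm10, which also gave all 4 members' promoter windows. Tlx2, Spic and Cemip in 2i/LIF and Trpm3, Tfec, Gbx2, Klf4 and the marker genes were named beyond that rule after their values were seen. Some genes that the rule would name are not reported here. The lists were the IAP and caspase network (12 genes), interferon-stimulated genes (25), TRPM channels (7), MITF and TFE factors (4), ETS factors (25), steroid and estrogen-related receptors (9) and naive pluripotency (14), and 7 sets of cell type markers. Alternatives were DESeq2 1.42.0, other scalings and filters, no robust estimation, fewer groups, a replicate block and leaving out each library. Same-numbered replicates did not deviate together.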

Additional observations from a re-analysis of the deposited data

Results flagged for a closer look

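The 12 to 24 h change of Xaf1 was unequal between the media when the difference was tested directly, at -3.04 ± 0.63 on the log2 scale (serum/LIF+2i minus 2i/LIF, adjusted p 0.000108, edgeR's quasi-likelihood test over all genes). Both serum/LIF+2i libraries, with 1 and 3 counts, lay below both 2i/LIF libraries, with 16 and 12 counts, at 24 h. The value ran from -3.88 to -2.53 when each library was left out in turn and was called each time.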

How the results depend on the processing

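Of 968 recomputed values, 949 kept their direction and their side of the threshold, or stayed within 1.5 times of a count. DESeq2 called 2638 genes for the medium difference at 12 h, 2688 at 24 h and 1140 for the difference of the 12 to 24 h changes, against 4334, 4439 and 2440 with edgeR. With a minimum of 5 CPM at 0 h, 18 genes were switched off in 2i/LIF cells and 9 in serum/LIF+2i cells, with 20 CPM 3 and 2, and with up to 3 counts allowed at 40 h 42 and 24, against 11 and 4. Leaving out each library in turn, the log2 values that changed side ran from -2.47 to -1.37 (Spic, 12 to 24 h, 2i/LIF), -1.41 to -0.31 and -5.04 to -2.14 (Spic, medium difference at 12 and 24 h), -3.25 to -1.50 (Trpm1, 12 to 24 h, serum/LIF+2i) and -3.38 to -1.45 (Trpm1, medium difference at 24 h). The difference of the steps of Trpm1, which was not called, ran from -0.10 to 1.83 and was reversed (-0.10) without the 24 h library of serum/LIF+2i replicate 2. The lone library left is assumed to vary like the other groups. Same-numbered replicates did not deviate together (r of -0.023 to 0.033 over 28 pairs of groups). With the replicate block, 5054 genes were called from 12 to 24 h in 2i/LIF in place of 5021, and no call on the 4 members changed. Depth limits Srarp and Spic at 12 and 24 h, where groups hold 1 to 31 counts in all.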
